A study of Homo sapiens with 4 samples.

Results

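The imprinted domain at 11p15 was examined at 163 CpG cytosines of the H9 line, an established human embryonic stem cell line, out of 907719 measured over all chromosomes except Y. Members lay on chromosome 11 (hg19) and were covered by 5 or more reads in each of the 4 libraries. Positions chose 3 windows: 2010001 to 2170000 around H19 and IGF2, 2715001 to 2725000 around KCNQ1OT1, and 2900001 to 2910000 around CDKN1C. Within them lay the H19 control region (2018001 to 2025000, 37 members), the IGF2 interval (2150001 to 2170000, 5 members), the KCNQ1OT1 control region (2719001 to 2723000, 32 members) and the CDKN1C interval (14 members). The stretches around them held 40 members before the H19 control region, 30 between H19 and IGF2, 5 before the KCNQ1OT1 control region and 0 after it. Methylation was read by bisulfite sequencing of captured genomic DNA, in 1 library per group. The groups were B3GALT5 -/- (KO) cells in the naive state in 2iLAF medium, wild-type (WT) cells in the naive state in 5iLAF medium, KO primed cells in basal medium and WT primed cells in basal medium. B3GALT5 adds galactose to glycolipids. Whether the KO line is a single clone was not stated, and the knockout itself was not checked on these data. No difference between groups has a replicate check. Genotype and medium differ together between the naive libraries and cannot be told apart.

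Imprinted genes are expressed from 1 parental allele, and a control region methylated on 1 allele only sets which. At H19 and IGF2 the control region carries methylation on the paternal copy. On the unmethylated maternal copy the protein CTCF binds and keeps enhancers from IGF2, so that the long non-coding RNA H19 is made from the maternal allele and the growth factor IGF2 from the paternal one. In the neighbouring domain the control region is methylated on the maternal copy and holds the promoter of KCNQ1OT1. This long antisense RNA inside KCNQ1 is made from the paternal allele and silences neighbours there, among them CDKN1C, an inhibitor of cyclin-dependent kinases. A region methylated on 1 allele stands at an intermediate level in bulk DNA. Naive media are known to lower methylation over the genome of human embryonic stem cells, imprinted regions included.

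Of the 4 genes, the RefSeq promoter table (GRCh38.p14) matched 1, H19, whose sequence is shown because its CpGs are the letters that the assay reads. Its 300 bases run over chr11:2001217-2001516 of GRCh38.p14 on the minus strand, with CpG in capitals:
H19: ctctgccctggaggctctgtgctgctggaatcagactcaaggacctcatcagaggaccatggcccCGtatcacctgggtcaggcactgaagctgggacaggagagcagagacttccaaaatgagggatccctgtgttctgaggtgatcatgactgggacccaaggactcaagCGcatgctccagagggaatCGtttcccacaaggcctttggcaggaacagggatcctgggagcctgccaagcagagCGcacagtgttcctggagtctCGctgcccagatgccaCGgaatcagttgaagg
The window holds 6 CpGs, against a median of 14 in the 35116 promoters of the table. Its build is not that of the deposited tables, so it was not placed on their coordinates and no level is given for it. Exons and introns were not assigned to the members.

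A cytosine without any methylated read has no row in the tables, so every level is that of cytosines with some methylation. Median depth over the members of the H19 control region was 25 reads in KO naive, 12 in WT naive, 15 in KO primed and 13 in WT primed cells. Over those of the KCNQ1OT1 control region it was 21, 10, 13.5 and 14 reads, in the same order of libraries. Members lie close together, at a median spacing of 12 bases in the H19 and 26 bases in the KCNQ1OT1 control region, so neighbours share reads and are not independent. On the plus strand lay 7 members before the H19 control region and 4 within it. All other members lay on the minus strand, so the remaining intervals have levels of the minus strand alone. SDs are over cytosines. Intervals are 95%, cover counting error only and treat cytosines and reads as independent. Neighbours share reads, and reads without molecular identifiers are not independent molecules, so these intervals are too narrow. Over all 907719 cytosines the mean level was 58.9% in KO naive, 57.7% in WT naive, 81.2% in KO primed and 80.2% in WT primed cells.

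**Figure D1:**
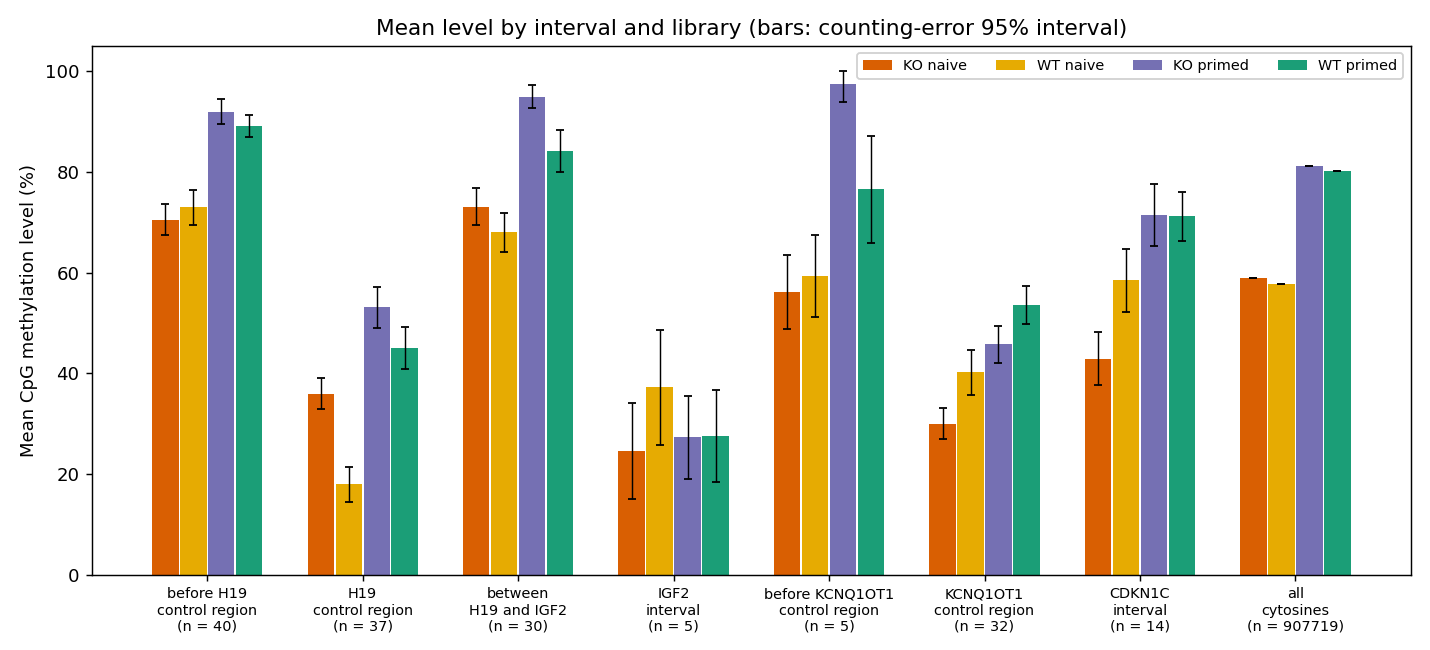
Mean methylation level (%) of the member cytosines of each interval in KO naive, WT naive, KO primed and WT primed libraries, with counting-error 95% intervals; n is the number of cytosines, and the last group holds all 907719. The H19 control region stands lowest in WT naive cells, at 17.9%, and the KCNQ1OT1 control region in KO naive cells, at 29.97%.

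The H19 control region was at an intermediate level in both primed libraries and lower in both naive ones, most of all in WT naive cells. Its mean level was 35.9% ± 13.9 in KO naive, 17.9% ± 11.5 in WT naive, 53.1% ± 15.9 in KO primed and 44.99% ± 20.8 in WT primed cells (SD, n = 37 cytosines). Between 30 and 70% stood 64.9% of its members in KO naive, 10.8% in WT naive, 73.0% in KO primed and 64.9% in WT primed cells. Among all cytosines the shares were 47.2, 44.2, 17.5 and 18.96%. The region thus held more intermediate cytosines than the whole table in the primed libraries and in KO naive cells, and fewer in WT naive cells. In WT naive cells 25 of the 37 members stood under 20%, against 7 in WT primed cells.

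Naive minus primed, the mean of the H19 control region differed by -17.2 points in KO cells (-22.3 to -12.1) and by -27.1 points in WT cells (-32.5 to -21.6). Over all cytosines these differences were -22.3 and -22.5 points. The naive level was 67.6% of the primed level in KO cells and 39.9% in WT cells, beside 72.5% and 72.0% over all cytosines. In KO naive cells 31 of 37 members were lower and 6 higher than in KO primed cells, where 84% of all cytosines were lower and 13.4% higher. In WT naive cells 33 were lower and 4 higher than in WT primed cells, where 76.8% of all cytosines were lower and 17.3% higher. Over both genotypes the region was at 26.9% in naive and 49.1% in primed cells, and the 2 pairs had a difference of -22.1 ± 6.96 points (SD), each lower in the naive state. An exact two-sided permutation test over the 4 libraries gave p = 0.333, the smallest that 2 against 2 can give. Requiring 20 reads left 4 cytosines, the minus strands of 4 CpGs, with -2.07 points in KO and -4.46 in WT cells. On the plus strands of these CpGs the mean was 13.9% in KO naive and 45.2% in KO primed cells. In WT cells it was 22.7% in the naive and 44.3% in the primed library. With each library on its own cytosines, the region differed by -7.03 points in KO and -19.3 points in WT cells. The levels were then 45.8% in KO naive (75 cytosines), 28.8% in WT naive (71), 52.8% in KO primed (57) and 48.1% in WT primed cells (66).

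Over the members, the naive-minus-primed difference in WT cells was greatest at the start of the region. Over 6 members in 2018001 to 2019000 the mean was 43.6% ± 7.24 in KO naive, 8.60% ± 3.48 in WT naive, 61.5% ± 27.7 in KO primed and 65.1% ± 13.4 in WT primed cells. The 22 members in 2020001 to 2021000 averaged 36.2% ± 13.6 in KO naive, 20.8% ± 12.8 in WT naive, 52.7% ± 14.2 in KO primed and 45.2% ± 20.7 in WT primed cells. The 9 members in 2022001 to 2023000 averaged 30.2, 17.2, 48.6 and 31.2% in the same order. WT naive cells were thus the lowest library in each of these 3 tiles. The tiles differed, naive minus primed, by -17.9, -16.5 and -18.5 points in KO cells, and by -56.5, -24.4 and -14.0 points in WT cells. On each library's own cytosines, 2018001 to 2019000 stood at 31.5% in WT naive (21 cytosines) and 65.6% in WT primed cells (9). The levels were 20.8% (22) and 50.8% (30) in 2020001 to 2021000, and 17.2% (9) and 31.35% (11) in 2022001 to 2023000. The lead of the start over 2020001 to 2021000 was thus smaller on own cytosines than over the members.

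In naive against primed cells, 4 of the 37 members were called lower in KO and 5 in WT cells. Of all cytosines, 18.2 and 16.2% were. Some calls lay near the start and others further on. Among the latter were 2020598 in WT cells (adjusted p = 0.0039, Fisher's exact test) and 2022885 in KO cells (adjusted p = 0.0383, Fisher's exact test). The cytosine at 2018829 was methylated in 19 of 36 reads in KO naive, 1 of 19 in WT naive, 7 of 12 in KO primed and 6 of 8 in WT primed cells. Its difference in WT cells was -69.7 points (Fisher's exact test, Benjamini-Hochberg adjusted p = 0.00783), while KO naive and KO primed cells differed by -5.56 points (adjusted p = 1, Fisher's exact test). At 2018919 the reads were 11 of 25, 1 of 11, 9 of 12 and 7 of 9 in the same order of libraries, with an adjusted p of 0.0323 in WT cells (Fisher's exact test). WT naive cells were the low library at both. The cytosine at 2018901 had 13 of 32 methylated reads in KO naive, 2 of 14 in WT naive, 13 of 14 in KO primed and 7 of 9 in WT primed cells, and was called lower in both genotypes. These tests compare the reads of 2 libraries, not the conditions.

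**Figure D2:**
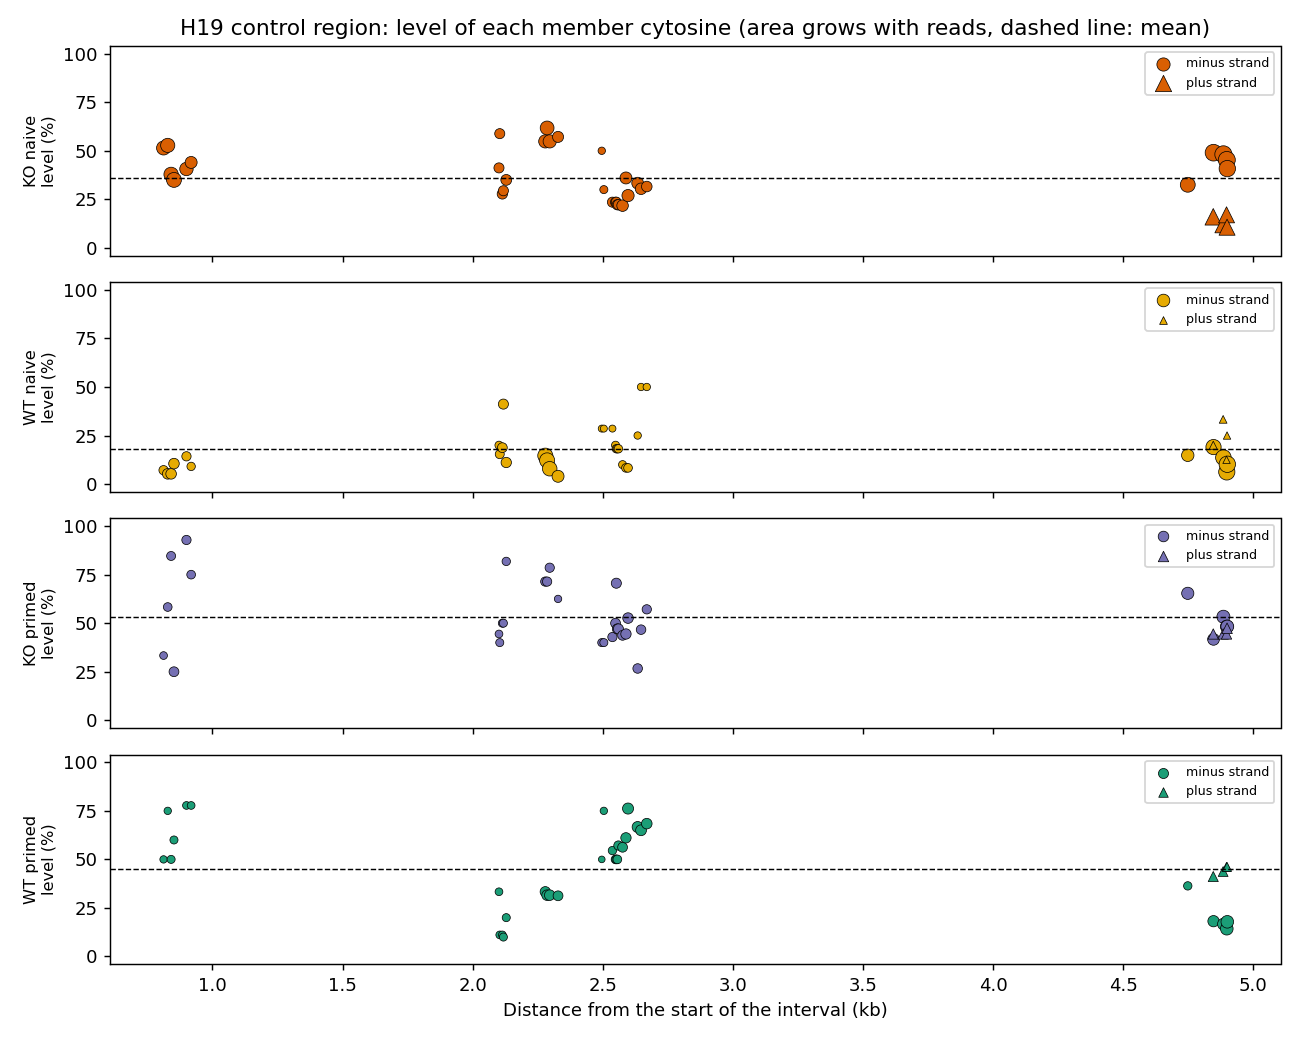
Methylation level (%) of each of the 37 member cytosines of the H19 control region against distance from the start of the interval (kb), one panel per library, with circles for the minus and triangles for the plus strand; marker area grows with the reads and the dashed line is the mean. The WT naive points lie lowest, around a mean of 17.9%, and near the end of the region plus and minus strands part in KO naive and WT primed cells.

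KO naive cells stood above WT naive cells in the H19 control region by 17.99 points (13.3 to 22.6). Of its 37 members 30 were higher and 7 lower, where 50% of all cytosines were higher and 47.7% lower. KO primed cells stood above WT primed cells by 8.14 points (2.35 to 13.9), with 20 members higher and 16 lower, where 41.4% of all cytosines were higher and 39% lower. The primed difference depended on the cytosines taken: it was 16.9 points with at least 10 reads, 4.70 points with each library on its own cytosines and 2.50 points over the 51 cytosines measured in both primed libraries. At 2020130, the member with the greatest difference between the primed libraries, 7 of 20 reads were methylated in KO naive, 2 of 18 in WT naive, 9 of 11 in KO primed and 2 of 10 in WT primed cells (adjusted p = 0.33 between the primed libraries, Fisher's exact test).

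Between the naive libraries 4 members of the whole domain were called higher in KO naive cells (2.45% of 163), beside 0.391% of all cytosines, and each lay in the H19 control region. The cytosine at 2020287 had 21 of 34 methylated reads in KO naive, 5 of 41 in WT naive, 10 of 14 in KO primed and 6 of 19 in WT primed cells. Its KO naive minus WT naive difference was 49.6 points (adjusted p = 0.00677, Fisher's exact test). At 2020329 the reads were 12 of 21, 1 of 25, 5 of 8 and 5 of 16 in the same order, and the naive libraries differed by 53.1 points (adjusted p = 0.0305, Fisher's exact test). The called cytosines at 2020287, 2020297 and 2020329 lie close together and share reads. The remaining call, at 2022899 on the minus strand, had 24 of 53 methylated reads in KO naive and 3 of 48 in WT naive cells (adjusted p = 0.00729, Fisher's exact test). The plus strand of its CpG, at 2022898, had 8 of 47 and 1 of 8 and was not called. Reads scaled down for the disagreement between strands left 0 calls by Fisher's test (5 members higher and 0 lower at an unadjusted p under 0.05). Of all 907719 cytosines, 0 were then called higher and 30 lower.

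At the end of the H19 control region, 4 CpGs were read on both strands in all libraries, and the strands did not stand at the same level. Plus and minus strands averaged 13.9% and 45.8% in KO naive cells, 22.7% and 12.3% in WT naive cells, 45.2% and 47.9% in KO primed cells, and 44.3% and 16.8% in WT primed cells. Plus minus minus strand, the difference was -31.9 points in KO naive, 10.4 in WT naive, -2.71 in KO primed and 27.6 in WT primed cells. At the CpG of 2022885 and 2022886, the plus strand had 6 of 50, 3 of 9, 8 of 18 and 7 of 16 methylated reads in KO naive, WT naive, KO primed and WT primed cells. The minus strand had 26 of 54, 6 of 44, 16 of 30 and 4 of 24 reads in the same order. On the mean of these CpGs KO naive cells exceeded WT naive cells on the minus strand and lay below them on the plus strand, where WT naive depth was 8 to 10 reads. The direction of the difference between the naive libraries thus depended there on the strand read. Between the primed libraries KO cells exceeded WT cells on the minus strand, while the plus strands stood at similar levels, 45.2% and 44.3%. Of 84471 CpGs of the whole table read on both strands, 33500 to 65331 stood at 20 to 80%, depending on the library. Over these the strands differed by 2.61 to 4.02 times the binomial variance.

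**Figure D3:**
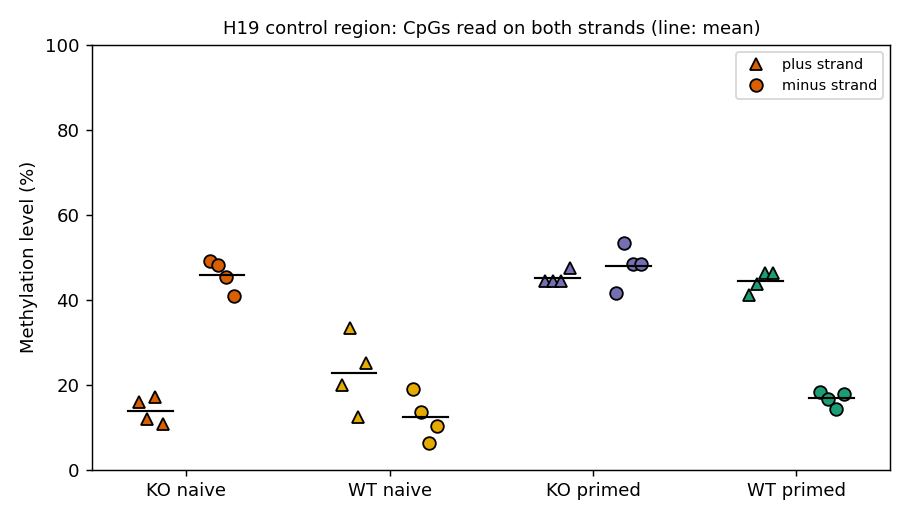
Methylation level (%) of the 4 CpGs of the H19 control region that had at least 5 reads on each strand in every library, by library, with triangles for the plus strand, circles for the minus strand and a line at the mean. Plus minus minus strand, the means differ by -31.9 points in KO naive, 27.6 points in WT primed and -2.71 points in KO primed cells.

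The stretches beside the H19 control region were highly methylated in primed cells and not at an intermediate level there. Before the region the mean was 70.5% ± 14.1 in KO naive, 72.99% ± 26.9 in WT naive, 91.9% ± 12.5 in KO primed and 89.1% ± 19.2 in WT primed cells (SD, n = 40 cytosines). Between H19 and IGF2 it was 73.05% ± 19.7, 68.0% ± 26.3, 94.9% ± 10.1 and 84.2% ± 19.2 in the same order (SD, n = 30). Naive minus primed, the differences before the region were -21.4 points in KO and -16.1 in WT cells, where the WT value was -7.94 with at least 10 reads and -24.6 on own cytosines; between H19 and IGF2 they were -21.9 points in KO and -16.2 in WT cells. Tiles within these stretches varied. In 2011001 to 2012000 the 5 members averaged 78.0% ± 15.9 in KO naive, 37.9% ± 18.3 in WT naive, 70.95% ± 19.8 in KO primed and 92.1% ± 7.21 in WT primed cells, so that KO naive cells stood above KO primed cells there. In 2033001 to 2034000 all 11 members were fully methylated in KO primed cells, and the mean was 74.04% ± 22.0 in KO naive, 81.8% ± 17.8 in WT naive and 84.7% ± 16.4 in WT primed cells. The first member of the domain, at 2010127, had 8 of 21 methylated reads in KO naive, 3 of 16 in WT naive, 12 of 13 in KO primed and 2 of 8 in WT primed cells. It was high in KO primed cells alone, and called lower in KO naive than in KO primed cells (adjusted p = 0.0235, Fisher's exact test). The cytosine at 2142871, the last member before the IGF2 interval, had 4 of 13 methylated reads in KO naive, 2 of 7 in WT naive, 14 of 14 in KO primed and 5 of 7 in WT primed cells, and was called lower in KO naive than in KO primed cells (adjusted p = 0.00252, Fisher's exact test).

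The IGF2 interval had 5 members, and the counting interval of every difference between libraries included 0. The mean level was 24.6% ± 18.7 in KO naive, 37.2% ± 23.1 in WT naive, 27.3% ± 24.4 in KO primed and 27.5% ± 32.3 in WT primed cells (SD, n = 5). Naive minus primed, the difference was -2.71 points in KO cells (-15.3 to 9.84) and 9.74 points in WT cells (-4.91 to 24.4). In the 4 comparisons 0 members were called by Fisher's exact test with adjustment, where 18.2% of all cytosines were called lower in KO naive than in KO primed and 16.2% in WT naive than in WT primed cells. At an unadjusted p under 0.05, 1 was higher in KO naive than in KO primed cells and 1 in WT naive than in WT primed cells. The first, at 2162574, had 12 of 23 methylated reads in KO naive, 6 of 21 in WT naive, 4 of 25 in KO primed and 3 of 11 in WT primed cells. The second, at 2162537, had 7 of 22, 8 of 17, 7 of 21 and 3 of 24 reads in the same order. The high library differed between these neighbours.

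Fewer IGF2 cytosines were listed in primed than in naive cells. Listed with at least 5 reads were 138 cytosines in KO naive and 118 in WT naive cells, and by 38 in KO primed and 33 in WT primed cells. Of the 79 cytosines with at least 5 reads in both naive libraries, 57.0% were listed in KO primed cells (46.0 to 67.3%, Wilson) and 39.2% in WT primed cells (29.2 to 50.3%), beside 93.5 and 92.0% over all cytosines. The shares were not matched on level or depth. Of the IGF2 cytosines with at least 5 reads in a library, 33.3% rested on 1 methylated read in KO naive and 23.7% in WT naive cells. In KO primed and WT primed cells these were 28.95 and 30.3%. Over all cytosines the shares were 9.46, 10.3, 5.22 and 5.22% in KO naive, WT naive, KO primed and WT primed cells. An unlisted cytosine had either no read or no methylated read, and these cannot be told apart. Each library's own cytosines at 5 reads showed a low and a high part of the interval. In 2154001 to 2155000 the mean was 56.2% in KO naive (29 cytosines), 66.1% in WT naive (41), 70.2% in KO primed (9) and 94.8% in WT primed cells (16). In 2159001 to 2160000 it was 5.67% in KO naive and 11.6% in WT naive cells over 23 cytosines each, and 8.21% in KO primed cells over 5. In 2162001 to 2163000 it was 23.02% (28), 28.1% (20), 28.5% (13) and 9.20% (7) in KO naive, WT naive, KO primed and WT primed cells. WT primed cells were the highest library in the first of these tiles and the lowest in the last, over cytosines that differ between libraries.

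The KCNQ1OT1 control region, with members on the minus strand only, was lower in both naive libraries than in the primed library of the same genotype. Its mean was 29.97% ± 27.4 in KO naive, 40.2% ± 29.2 in WT naive, 45.7% ± 28.0 in KO primed and 53.6% ± 29.9 in WT primed cells (SD, n = 32 cytosines). Naive minus primed, the difference was -15.8 points in KO cells (-20.6 to -10.9), with 25 of 32 members lower, and -13.5 points in WT cells (-19.3 to -7.58), with 28 of 32 lower. The naive level was 65.6% of the primed level in KO and 74.9% in WT cells, so that in WT cells the share kept was near the 72.0% of all cytosines. Over both genotypes the region was at 35.1% in naive and 49.7% in primed cells, a gap of -14.6 ± 1.61 points (SD over 2 pairs), each lower in the naive state. The exact two-sided permutation test gave p = 0.333, again the smallest possible. With at least 10 reads the gap was -7.68 points. KO cells stood below WT cells in both states, with differences of -10.2 points (-15.6 to -4.76) between the naive and -7.91 points (-13.3 to -2.58) between the primed libraries. The first of these was -4.03 points with unlisted cytosines filled in at 0, and the second was -3.37 points over the 56 cytosines measured in both primed libraries.

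The KCNQ1OT1 control region held a low and a high tile. The 10 members in 2721001 to 2722000 averaged 8.48% ± 2.77 in KO naive, 9.93% ± 2.81 in WT naive, 19.9% ± 14.3 in KO primed and 16.3% ± 4.33 in WT primed cells. The 22 members in 2722001 to 2723000 averaged 39.8% ± 28.0, 53.9% ± 24.9, 57.5% ± 24.6 and 70.6% ± 18.6 in the same order. Near their end, at 2722614, 17 of 17 reads were methylated in KO naive, 7 of 10 in WT naive, 13 of 14 in KO primed and 13 of 13 in WT primed cells. The mean over the region is therefore no level of a single element.

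Called changes in the KCNQ1OT1 control region numbered 3 of 32 lower and 1 higher in KO naive against KO primed cells, beside 18.2 and 0.242% of all cytosines. The cytosine at 2722537 had 7 of 37 methylated reads in KO naive, 2 of 9 in WT naive, 15 of 22 in KO primed and 3 of 8 in WT primed cells, and differed by -49.3 points in KO cells (adjusted p = 0.00364, Fisher's exact test). At 2722441, called higher, the reads were 23 of 27, 11 of 15, 4 of 11 and 13 of 19 in the same order (adjusted p = 0.0325, Fisher's exact test). There KO primed cells were the low library, at 36.4%, and the other 3 stood at 68.4% or more. The cytosine at 2722259 had 2 of 29 methylated reads in KO naive, 7 of 10 in WT naive, 13 of 24 in KO primed and 16 of 22 in WT primed cells. It was the 1 member of the domain called lower in KO naive than in WT naive cells (adjusted p = 0.042, Fisher's exact test), beside 0.218% of all cytosines. Between the primed libraries the greatest difference, -61.8 points, was at 2722332, with 6 of 32 methylated reads in KO naive, 5 of 7 in WT naive, 9 of 29 in KO primed and 13 of 14 in WT primed cells, and it was not called (adjusted p = 0.0532, Fisher's exact test). In WT naive against WT primed cells 0 members of this region were called in either direction by Fisher's exact test, beside 16.2% of all cytosines lower and 0.442% higher, and 0 had an unadjusted p under 0.05.

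**Figure D4:**
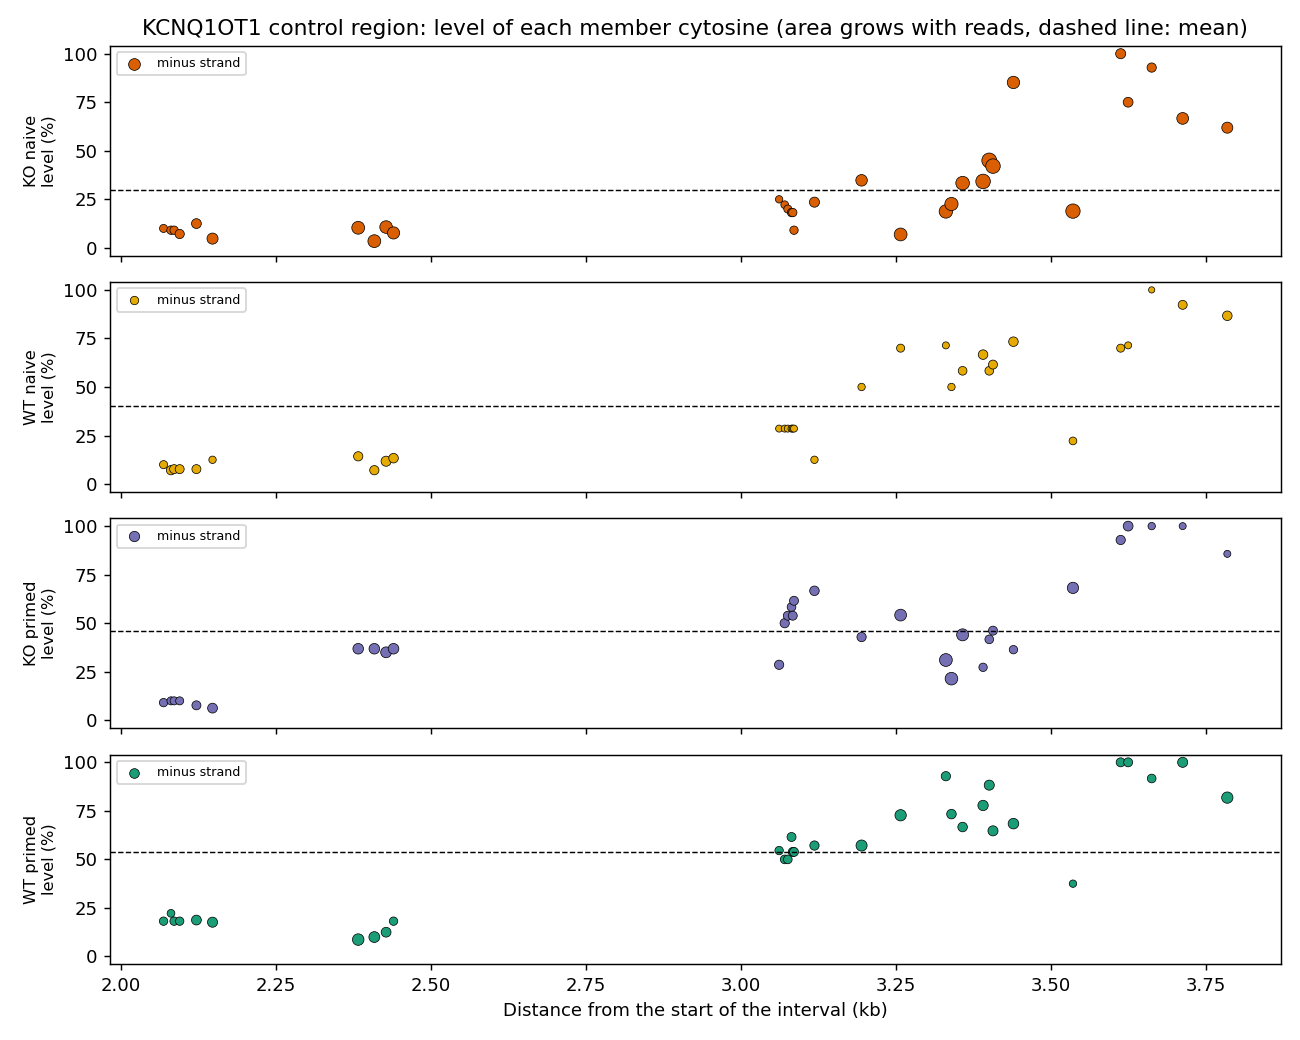
Methylation level (%) of each of the 32 member cytosines of the KCNQ1OT1 control region against distance from the start of the interval (kb), one panel per library; marker area grows with the reads and the dashed line is the mean. Levels in all libraries are low on the left, where the tile means are 8.48 to 19.9%, and higher on the right, where they are 39.8 to 70.6%.

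A smaller share of the KCNQ1OT1 control region than of the whole table was listed in naive cells. Of its 56 cytosines with at least 5 reads in both primed libraries, 71.4% were listed in KO naive cells (58.5 to 81.6%, Wilson) and 60.7% in WT naive cells (47.6 to 72.4%). Over all cytosines these shares were 96.1 and 89.9%. The shares were not matched on level. In the H19 control region 94.1% of 51 such cytosines were listed in KO naive and 86.3% in WT naive cells, and in the CDKN1C interval 83.3 and 77.8% of 18. Of the cytosines of the KCNQ1OT1 control region with at least 5 reads in a library, 55.9% rested on 1 methylated read in KO naive, 42.9% in WT naive, 23.5% in KO primed and 4.62% in WT primed cells. Over all cytosines these shares were 9.46, 10.3, 5.22 and 5.22%. With unlisted cytosines filled in at 0 methylated reads from the depth of neighbours, the mean over 51 cytosines was 22.6% in KO naive, 26.6% in WT naive, 36.8% in KO primed and 42.6% in WT primed cells.

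Before the KCNQ1OT1 control region, 5 members averaged 56.2% ± 18.8 in KO naive, 59.3% ± 31.02 in WT naive, 97.4% ± 3.54 in KO primed and 76.5% ± 14.4 in WT primed cells. The naive-minus-primed difference was -41.3 points in KO cells (-49.3 to -33.2), with 5 of 5 lower, and -17.2 points in WT cells (-30.6 to -3.80), with 2 of 5 lower. With at least 10 reads, over 3 of the 5, it was -54.8 points in KO and -42.5 points in WT cells. The cytosine at 2717997 had 11 of 31 methylated reads in KO naive, 4 of 17 in WT naive, 13 of 13 in KO primed and 12 of 13 in WT primed cells. It was called lower in both genotypes, with adjusted p = 0.00109 in KO and 0.00387 in WT cells (Fisher's exact test).

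KO naive cells were the lowest library of the CDKN1C interval. At 80% or more stood 6 of its 14 members in KO primed and 9 in WT primed cells. The mean was 42.9% ± 22.1 in KO naive, 58.4% ± 30.6 in WT naive, 71.5% ± 27.3 in KO primed and 71.1% ± 37.5 in WT primed cells (SD, n = 14 cytosines). Naive minus primed, the difference was -28.6 points in KO cells (-36.7 to -20.5), lower at 12 of 14 members, and -12.7 points in WT cells (-20.6 to -4.76), lower at 7 and higher at 5. KO naive minus WT naive was -15.6 points (-23.7 to -7.47), and KO primed minus WT primed was 0.329 points (-7.63 to 8.29). Of the members, 10 lay in 2904001 to 2905000, where the mean was 52.2% ± 17.8 in KO naive, 70.6% ± 27.0 in WT naive, 83.8% ± 18.1 in KO primed and 92.3% ± 15.9 in WT primed cells. Both primed libraries stood above both naive ones in that tile. The other 4 members had lower levels and did not all move the same way. At 2909710 the methylated reads were 1 of 33 in KO naive, 2 of 9 in WT naive, 4 of 10 in KO primed and 3 of 9 in WT primed cells. At 2909694 they were 8 of 26, 3 of 7, 1 of 10 and 1 of 8 in the same order, higher in the naive library of each genotype.

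Neighbouring CDKN1C cytosines did not all move together. The cytosine at 2904590 had 8 of 26 methylated reads in each naive library, 11 of 12 in KO primed and 9 of 9 in WT primed cells, and was called lower in both genotypes (adjusted p = 0.0108 in KO and 0.0052 in WT cells, Fisher's exact test). A few bases before it, at 2904584, the reads were 21 of 27 in KO naive, 8 of 25 in WT naive, 12 of 12 in KO primed and 9 of 9 in WT primed cells, and the call was made in WT cells alone (adjusted p = 0.0106, against 0.321 in KO cells, Fisher's exact test). At 2904482 they were 5 of 18, 7 of 10, 8 of 8 and 7 of 8 in the same order, with a call in KO cells (adjusted p = 0.0143, Fisher's exact test). These calls rest on 8 to 12 reads in the primed libraries.

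Over the whole domain, a smaller share of members than of all cytosines passed the threshold for a decrease in naive cells (Fisher's exact test, adjusted p under 0.05 and at least 25 points). KO naive against KO primed cells gave 22 of 163 members lower (13.5%), beside 18.2% of all 907719 cytosines, and 1 higher, beside 0.242%. WT naive against WT primed cells gave 10 lower (6.13%), beside 16.2%, and 0 higher, beside 0.442% (3 at an unadjusted p under 0.05). The median difference of the members was -21.2 points in KO and -13.3 points in WT cells. KO primed against WT primed cells gave 0 lower and 0 higher, beside 0.103 and 0.216% (5 and 12 at an unadjusted p under 0.05). With strands merged 1 was lower, beside 1114 of all 865076. Members and all cytosines were not matched on depth or level.

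**Figure D5:**
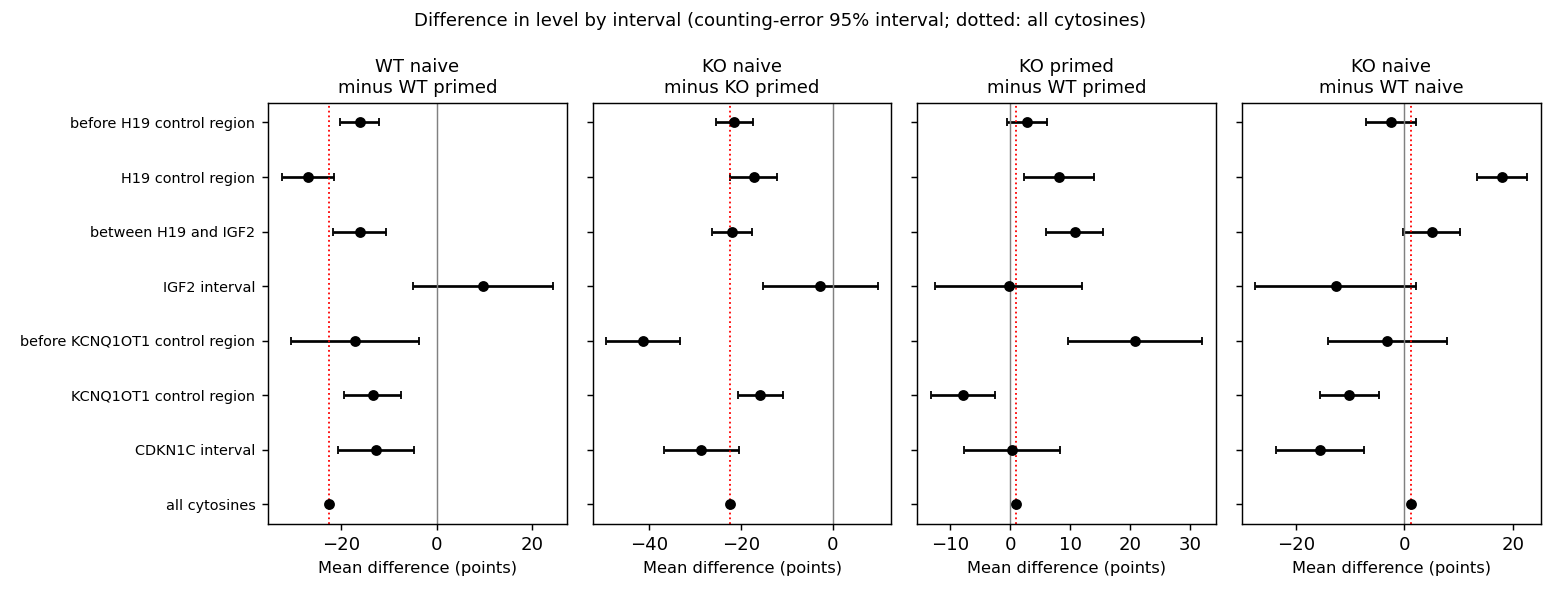
Mean difference in methylation level (percentage points) of each interval in the 4 comparisons, the first-named library minus the second, with counting-error 95% intervals; the dotted line marks the mean over all cytosines, and each panel has its own scale. The H19 control region lies above 0 in KO naive minus WT naive cells, at 17.99 points, while the KCNQ1OT1 control region and the CDKN1C interval lie below it, at -10.2 and -15.6 points.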

How the data were processed

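Libraries were made with a methylation capture kit, with a conversion of 99% stated for each, per the labels' protocols. The reads were placed on hg19 (GRCh37), per the submitters' processing notes; aligner, caller and duplicate handling were not given in the sources used here. In each library the authors deposited raw read counts (total, context and methylated coverage) for each cytosine and strand, and a methylation level as a fraction, which equalled methylated over context coverage to within 5e-07. No table had a row with 0 methylated reads, and 82.3 to 83.9% of rows were on the minus strand. Summed reads were 41016760 in KO naive, 24128734 in WT naive, 28706169 in KO primed and 24790765 in WT primed cells.

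Cytosines were joined by chromosome, position and strand, without chromosome Y, and kept at 5 or more reads in all 4 libraries. Each cytosine had equal weight in a mean level. Counting intervals of means come from the binomial variance of each cytosine, and shares have Wilson intervals. Both take cytosines as independent. For each cytosine, libraries were compared pairwise with Fisher's exact test, two-sided (own code in numba 0.67.0, tested on simulated data and against scipy 1.17.1) with Benjamini-Hochberg adjustment over all 907719. Cytosines named were the 2 with the greatest decrease and increase among those called in an interval and comparison or, with none called, among those with 10 reads. Named after their values were seen were 2022885, 2022886, 2022898, 2022899, 2722332, 2909694 and 2909710. Tiles of 1000 bases needed 5 members. The members, windows and tests were chosen with earlier results of these data known. Alternatives were minimums of 10 and 20 reads, pooled reads, each library's own cytosines, filling in at 0 from the nearest listed cytosine within 25 bases, merged strands, a difference of 50 points, scaled reads and, added after the data were seen, cytosines measured in both libraries of a comparison.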

Additional observations from a re-analysis of the deposited data

Results flagged for a closer look

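Mean differences of opposite sign in 2 groups were found for 4 intervals. Each is 1 library against another, and the gap between the 2 differences was not tested. In no pair did both counting intervals exclude 0. The naive-minus-primed difference of the IGF2 interval was -2.71 points in KO (-15.3 to 9.84) and 9.74 points in WT cells (-4.91 to 24.4), with 0 inside both counting intervals. The KO-minus-WT difference before the H19 control region was -2.48 points in naive (-7.14 to 2.17) and 2.82 points in primed cells (-0.495 to 6.13). Both intervals include 0, and the directions turned on each library's own cytosines, to 1.43 and -0.973 points. Before the KCNQ1OT1 control region it was -3.16 points in naive (-14.1 to 7.79) and 20.9 points in primed cells (9.69 to 32.1), over 5 cytosines. The naive value was 2.55 points with at least 10 reads. In the CDKN1C interval it was -15.6 points in naive (-23.7 to -7.47) and 0.329 points in primed cells (-7.63 to 8.29). The primed value was -3.62 points on own cytosines.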

How the results depend on the processing

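Naive and primed libraries were set against each other within each genotype, as 2 pairs. Beyond these pairs, no paired analysis was possible because each group held 1 library and the labels give no replicate numbers. Naive-minus-primed differences kept their direction under every alternative that gave a value in the H19 control region (20 of 20), the KCNQ1OT1 control region (17 of 17) and the CDKN1C interval (14 of 14), and turned in 5 of 17 values of the IGF2 interval. Alternatives needed 3 cytosines for a mean, so none was had at 20 reads outside the H19 control region, or at 10 reads for CDKN1C. In the H19 control region, 20 reads left 4 cytosines, the minus strands of the CpGs read on both. Naive minus primed was then -2.07 points in KO, -4.46 in WT and -3.27 over both genotypes. KO minus WT on these minus strands was 33.5 points in naive and 31.1 in primed cells. On the plus strands KO and WT primed cells stood at 45.2 and 44.3%, and KO and WT naive cells at 13.9 and 22.7%. At 10 reads KO minus WT over the region was 16.9 points in primed cells. On each library's own cytosines the region differed by -7.03 points in KO, -19.3 in WT and -13.2 over both, and by -19.6 in WT cells where both libraries of the comparison were measured. The KCNQ1OT1 control region differed by -7.14 points in KO cells and -7.68 over both genotypes at 10 reads, by -10.7 over both on own cytosines, and by -4.03 between KO and WT naive cells with filling in. On own cytosines the IGF2 interval differed by -11.5 points in WT, -6.95 over both and -20.0 between KO and WT primed cells, and at 10 reads by 11.04 in KO cells. The CDKN1C interval differed by -17.6 points in KO cells and -13.9 over both on own cytosines, and KO minus WT primed was 9.54 where both libraries were measured. For the stretches, 14 of 87 values moved by more than their counting interval. Of calls, WT naive against WT primed gave 0 lower at 20 reads and 0 with scaled reads (0 and 3 at an unadjusted p under 0.05). Of all cytosines, 28665 of 87647 and 1202 of 907719 were lower. With merged strands 1 member was higher, beside 4047 of all 865076. KO naive against KO primed gave 14 of 68 members lower at 10 reads, 0 of 4 at 20, 9 of 163 at 50 points and 0 with scaled reads. Of all cytosines, 112604 of 411226, 26572 of 87647, 87666 of 907719 and 1542 of 907719 were lower in the same order. Members called higher were 2 at 10 reads but 0 at 20, at 50 points and with scaled reads. Of all cytosines, 1612, 385, 975 and 1 were higher. KO against WT primed gave 1 lower with merged strands, beside 1114 of all 865076. KO against WT naive gave 0 lower at 20 reads and with scaled reads and 2 with merged strands. Of all cytosines, 960 of 87647, 30 of 907719 and 2395 of 865076 were lower. Members called higher were 1 at 50 points and 0 with scaled reads, beside 2567 and 0 of all 907719. With scaled reads, which follow the disagreement between strands, few reads remain, and at 20 reads 4 members do. At 20 reads and with scaled reads, KO naive against KO primed had 0 members at an unadjusted p under 0.05; KO against WT naive had 4 higher at 20 reads and 5 with scaled reads, and KO against WT primed 3 higher at 20 reads and 0 with scaled reads. The cause of the other changes was not tested.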

Other observations

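In 2019001 to 2020000 of the H19 control region no cytosine was listed with 5 reads in all 4 libraries, and each library's own cytosines gave 56.0% in KO naive (5 cytosines), 40.6% in WT naive (19), 17.5% in KO primed (4) and 44.9% in WT primed cells (16). WT naive cells stood there above their own level in the neighbouring tiles. In the CDKN1C interval, 2905001 to 2906000 was low, at 13.5% in KO naive (8 cytosines), 36.98% in WT naive (8) and 25.4% in KO primed cells (10), and 2908001 to 2909000 stood at 76.6% in KO primed (9) and 32.9% in WT primed cells (4). In 2168001 to 2169000 of the IGF2 interval the levels were 71.4% in KO naive (6), 82.3% in WT naive (9) and 46.0% in WT primed cells (3). These levels come from different cytosines in different libraries and were not compared by a test.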
